A study of Mus musculus with 10 samples.

Results

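Myogenic cells of the embryonic back skin are the subject here: 837 of the 55482 cells kept in 10 single-cell RNA libraries. A kept cell had more than 1000 and fewer than 6000 detected genes and less than 10% of its UMIs (unique molecular identifiers, each counting 1 captured transcript) from mitochondrial genes. A member was a kept cell with at least 2 of the 5 genes Myod1, Myog, Pax7, Myf5 and Chrna1 detected and fewer than 10 UMIs of the keratins Krt5 and Krt14 together. The members were thus chosen by the UMIs of these 7 genes, whose levels are given as a description with no test. Members with Pax7 and no Myog UMI are called progenitor cells below, and members with Myog and no Pax7 UMI committed cells.

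Mouse back skin lies on a thin sheet of skeletal muscle that moves the skin, and a dissociated skin sample can carry its cells along. Skeletal muscle forms from progenitors that hold the paired box factor Pax7 and the early myogenic factor Myf5 and that keep dividing under Notch signalling. Myod1 commits them to the lineage, and Myog (myogenin) accompanies withdrawal from the cell cycle, after which the cells fuse into multinucleated fibres and build sarcomeres and receptors for the motor nerve. Chrna1 encodes the alpha subunit of the muscle acetylcholine receptor.

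Whole back skin had been taken from mouse embryos of a mixed C57Bl/6J and CD-1 background. At E15.5 and again at E16.5 (embryonic days) there were 2 control and 2 MOF cKO libraries, in which the floxed gene of the histone acetyltransferase MOF (symbol Kat8) was deleted by Krt14-Cre. At E17.5 there were 1 control and 1 QPC cKO library, in which the same Cre removed Uqcrq, a subunit of respiratory complex III. The keratin 14 promoter drives this Cre in skin epithelium, so that the myogenic cells were not its target. Of the E15.5 MOF cKO embryos, that of library 6 is described by the study as mosaic. Controls were littermates by the study's design, but no label says which libraries share a litter, and p-values below measure the spread between libraries only.

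Libraries held 716 to 10653 kept cells with a median of 9600 to 22340 UMIs, and no pair shared more than 36 cell barcodes. The labels name a different kit version for each stage. E15.5 and E17.5 libraries list the same 32285 genes and share 10 to 21 barcodes a pair, whereas the E16.5 libraries list 27998 genes and share at most 1 with either, so that E16.5 and its chemistry cannot be told apart. In myogenic cells the RNA Xist, which marks an inactive X chromosome, was at 0 CPM (UMIs of a gene per 1000000 UMIs of those cells) in E16.5 control library 2 and in both E17.5 libraries and at 494 to 960 CPM in the others.

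The label was checked with 8 muscle genes, of which none took part in choosing the cells (Des, Cdh15, Actc1, Acta1, Tnnt1, Mylpf, Chrng and Msc). Their summed level was 2854 to 5640 CPM in the members of the 10 libraries, against 25.5 to 143 CPM in the 41327 other cells with few keratin UMIs. All 8 genes were above 0 in the members of every library. Haemoglobin, fibroblast and keratinocyte RNA was present too. The sum of 4 erythroid genes in members ran from 1.74 CPM in the E17.5 QPC cKO library to 45213 CPM in E16.5 control library 2, and the sum of 6 fibroblast genes from 931 to 4336 CPM. At least 2 fibroblast markers were detected in 186 of the 837 members, most often at E16.5. There they were found in 13 of 17 and 4 of 12 members of control libraries 1 and 2. In E16.5 MOF cKO libraries 1 and 2 they were found in 6 of 9 and 17 of 30. The E15.5 libraries had them in 11.5% to 24.3% of members. The part of these cells in the results was not tested except where values without them are given. At least 2 keratinocyte markers were detected in 2.29% of the members of E15.5 MOF cKO library 5 and up to 100% of those of E16.5 control library 1 (89 of 90 in the E17.5 control and 50 of 55 in QPC cKO). In other low-keratin cells that share ran from 2.02% to 97.9%, and its part in the results was not tested.

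Myod1 was the most widely detected of the 5 marker genes, in 691 members or 82.6%. Pax7 was detected in 482 (57.6%), Myog in 429 (51.3%), Myf5 in 343 (41.0%) and Chrna1 in 280 (33.5%). Most members carried few of them, with exactly 2 markers in 359 cells, 3 in 409, 4 in 65 and all 5 in 4. Among the other cells with few keratin UMIs, whose median depth was 8926 to 19647 UMIs against 12878 to 22570 in members, Pax7 was detected in 0.052% to 0.319% of a library, Myf5 in 0% to 0.273% and Myod1 in 0.0816% to 0.309%. Myog reached 4.2% and Chrna1 3.74% there, so a lone UMI of either was less particular to the lineage. Actc1, the actin of the embryonic sarcomere, shows where the threshold lies: its level was 8.74 to 136 CPM in cells just outside, with 1 marker, and 137 to 1765 CPM in cells just inside, with 2.

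Myogenic cells made up 0.858% (72 of 8396) and 1.14% (104 of 9117) of the kept cells in E15.5 control libraries 2 and 3. In MOF cKO libraries 5 and 6 they made up 2.14% (218 of 10179) and 2.16% (230 of 10653). The 95% Wilson intervals of the controls, 0.682% to 1.08% and 0.942% to 1.38%, lay below those of the MOF cKO libraries, 1.88% to 2.44% and 1.9% to 2.45%. These intervals cover counting error only.

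**Figure D1:**
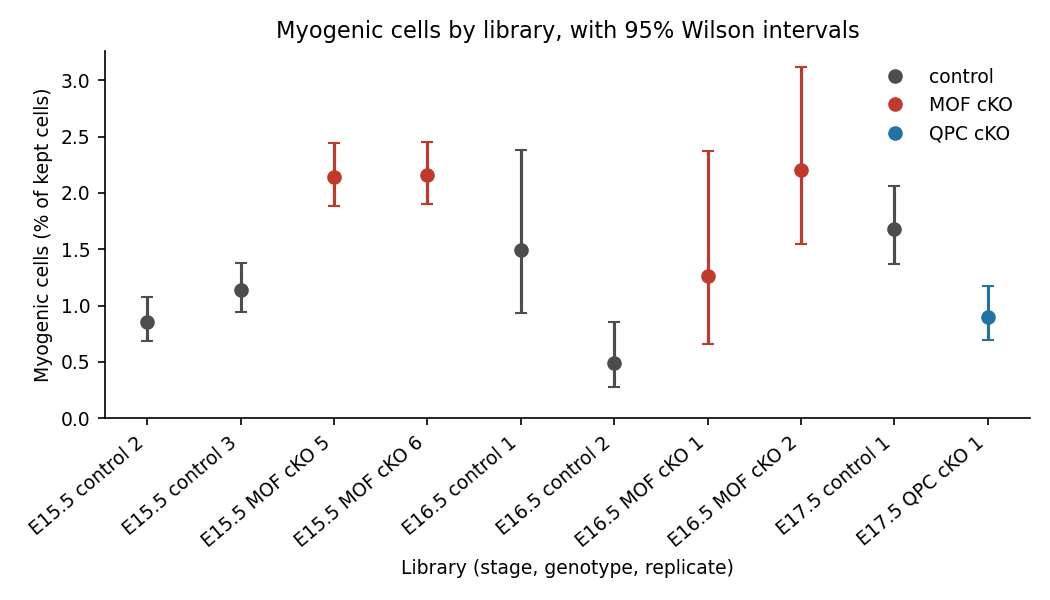
Myogenic cells as a percentage of kept cells (vertical axis) in each of the 10 libraries (horizontal axis), coloured by genotype, with 95% Wilson intervals for counting error. Both E15.5 MOF cKO libraries, at 2.14% and 2.16%, lie above both E15.5 controls, whereas the E16.5 groups overlap.

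At E15.5 control libraries averaged a share of 0.999% ± 0.2 and MOF cKO libraries 2.15% ± 0.0123 (SD, n = 2 each), a difference of 1.15 percentage points. An exact two-sided permutation test gave p = 0.333, the smallest value that 2 against 2 libraries allow. At E16.5 the controls had 1.49% (17 of 1140) and 0.49% (12 of 2447), and the MOF cKO libraries 1.26% (9 of 716) and 2.2% (30 of 1363). Here the groups overlapped, and the difference of 0.738 points was close to their SDs of 0.708 and 0.668 (exact permutation p = 0.667). Averaged over the stages the difference was 0.945 points, higher in MOF cKO in each stage's mean, with an exact permutation p of 0.111 where 0.0556 is the smallest possible. That smallest value, 0.0556, was reached when at least 3 markers or fewer than 3 keratin UMIs were asked of a member. It was also reached without members holding at least 2 markers of any of 6 other classes (fibroblast, endothelial, immune, Schwann, mural or melanocyte). This screen set keratinocyte and erythroid markers aside. It left 4 and 8 members in E16.5 control libraries 1 and 2, and 3 and 12 in MOF cKO. Asking for fewer than 3 keratin UMIs left 1 and 5 members in E16.5 control libraries 1 and 2, and 5 and 29 in MOF cKO. Before that limit, members had a median of 5 and 3 keratin UMIs in these controls and of 1 and 0.5 in MOF cKO. Kept cells with at least 10 keratin UMIs were fewer in MOF cKO at E15.5. They were 2635 of 8396 and 2896 of 9117 in control, and 1061 of 10179 and 1648 of 10653 in MOF cKO. Counted among cells with few keratin UMIs alone, the E15.5 shares averaged 1.46% in control and 2.47% in MOF cKO. The difference was then 1.01 points, and that of E16.5 was 0.506 points.

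At E17.5, with 1 library a group and no test, members were 1.68% of kept cells in control (90 of 5353, 1.37% to 2.06%) and 0.899% in QPC cKO (55 of 6118, 0.691% to 1.17%). The keratin limit cut through the E17.5 control members, whose median was 7 keratin UMIs with 9 the highest allowed, against a median of 4 in QPC cKO and of 0 to 1 in the E15.5 libraries. Without that limit, 167 control cells (3.12%) and 60 QPC cKO cells (0.981%) had at least 2 markers. Of the E17.5 control cells with at least 10 keratin UMIs, 77 of 3069 had at least 2 of the 5 markers, and 49 of these had 10 to 12 keratin UMIs. The share is therefore higher in the control library with either rule, and its size there depends on the limit. With cells thinned to 4000 UMIs, members were 85 control and 31 QPC cKO cells, and since keratin UMIs were thinned too, the limit could then admit cells with more of them in the deposited counts.

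**Figure D2:**
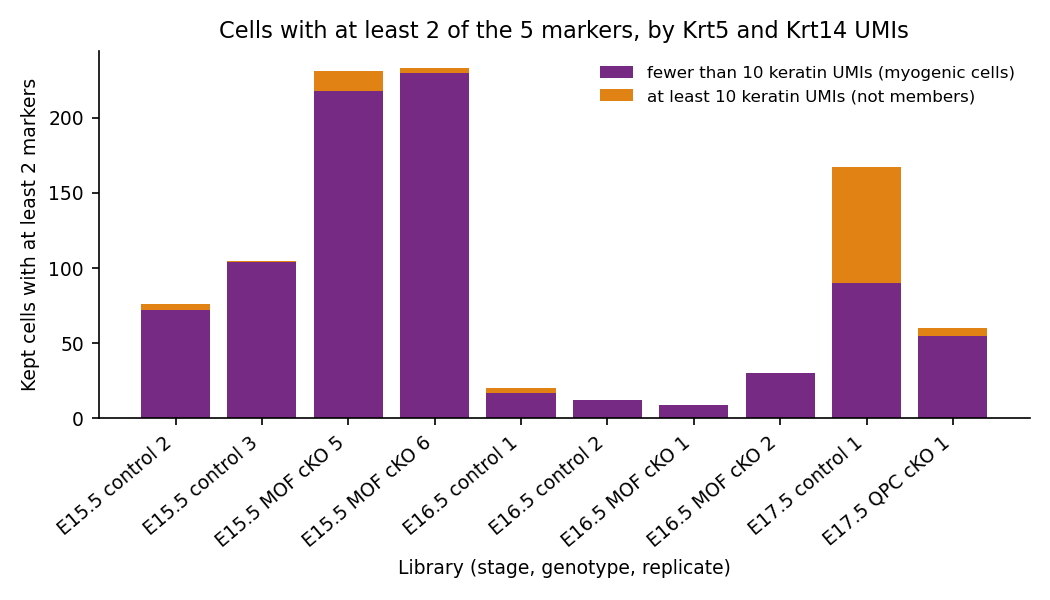
Number of kept cells with at least 2 of the 5 myogenic markers (vertical axis) in each library (horizontal axis), split by the UMIs of Krt5 and Krt14 together. Cells over the limit are few in every library except the E17.5 control, where 77 stand beside 90 members.

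Progenitor cells numbered 378 and committed cells 325, while 104 members had both Pax7 and Myog and 30 had neither. Detection of the remaining markers went with these classes. Myf5 was detected in 269 of 378 progenitor cells (71.2%) and 19 of 325 committed cells (5.85%), and Chrna1 in 14 (3.7%) and 225 (69.2%). Myod1 was frequent in both, at 73.3% and 89.8%. In cells with both Pax7 and Myog, Myf5 was detected in 27.9% and Chrna1 in 33.7%. The rule shapes these rates, since a cell with both was a member without any further marker and a progenitor or committed cell needed 1 more. The 30 cells with neither were recognised by Myod1 (29 cells) and Myf5 (26 cells).

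Pax7 was detected in 55.6% and 63.5% of myogenic cells in the E15.5 controls and in 54.1% and 58.7% in MOF cKO. Myog was detected in 48.6% and 43.3% of them in control and in 58.3% and 52.6% in MOF cKO. The Pax7 shares overlapped between the groups and the Myog shares did not. Wilson intervals of the Myog shares overlapped, however. They were 37.4% to 59.9% and 34.2% to 52.9% in control, and 51.6% to 64.6% and 46.2% to 59% in MOF cKO. At E16.5 Pax7 was found in 29.4%, 33.3% and 26.7% and Myog in 70.6%, 75.0% and 70.0% of the members of the 3 libraries with at least 10 members (both controls and MOF cKO library 2). These Pax7 shares were below all E15.5 shares and these Myog shares above them, with 12 to 30 members a library and another chemistry. In other low-keratin cells of these 3 libraries Myog was found in 4.2%, 0.624% and 4.1%. At E15.5 that range was 0.369% to 0.821%. With at least 2 UMIs asked, the Myog shares of the stages overlapped. Myog was then found in 8 of 17 members of E16.5 control library 1. In E15.5 MOF cKO library 5 it was found in 112 of 218. E16.5 MOF cKO library 1, with 9 members, had Pax7 in 5 (55.6%), within the range of E15.5, and Myog in 6 (66.7%). Over both stages MOF cKO minus control was -3.9 points for Pax7 and 3.35 points for Myog, and -7.25 and 9.05 points with every cell thinned to 4000 UMIs, which left 6 libraries. With at least 2 UMIs asked for detection they were -3.17 and 10.7 points. Both genes took part in choosing the cells, so these shares carry no test.

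At E17.5 Pax7 was detected in 57 of 90 control members (63.3%, Wilson 53.0% to 72.6%) and in 44 of 55 QPC cKO members (80.0%, 67.6% to 88.4%). Myog was detected in 40 (44.4%, 34.6% to 54.7%) and 13 (23.6%, 14.4% to 36.3%). The intervals of both genes overlap slightly between the libraries. Thinned to 4000 UMIs, Pax7 remained the gene more often detected in QPC cKO (54.8% against 31.8%) and Myog in control (58.8% against 38.7%). Keratin UMIs were thinned too, so these 85 control and 31 QPC cKO members could include cells that the main rule left out.

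**Figure D3:**
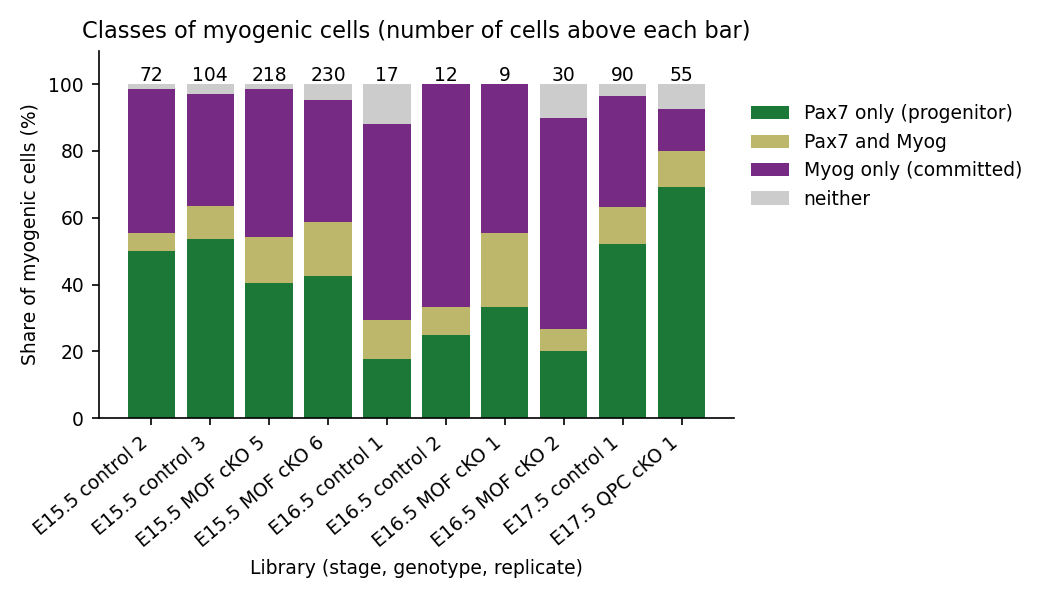
Share of myogenic cells (vertical axis, percent) with Pax7 only, Myog only, both or neither in each library (horizontal axis), with the number of cells above each bar. Myog-only cells take the larger part at E16.5, and Pax7-only cells the larger part in the E17.5 QPC cKO library (38 of 55).

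What separates committed from progenitor cells was tested on UMI sums per library and class in the 5 libraries with at least 10 cells of each class (the 4 E15.5 libraries and the E17.5 control), with the library as a block. Most tested fusion, receptor and sarcomere genes were higher in committed cells, and most progenitor and cell cycle genes lower. Of 8368 genes tested, 1585 were higher and 1599 lower at an adjusted p under 0.05 (edgeR quasi-likelihood test, Benjamini-Hochberg), that is 18.9% and 19.1%, or 38% in all. Against so wide a background, a list is described by its counts and its median difference, where the median over all genes tested is 0.00 on the log2 scale. With library size alone as the scaling the median over all genes became -0.11 and the split 1154 higher and 1997 lower. Committed cells had more UMIs per cell than progenitor cells in each of the 5 libraries (medians of 14252 to 21291 against 11773 to 17559). The classes were cut on the cells' own Pax7 and Myog UMIs, so the test describes what accompanied that cut. The test on UMI sums of a class does not tell more RNA in each cell from more cells with the RNA.

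Regulators of the lineage split evenly, with 7 of 13 tested genes higher and 6 lower. Mef2c, a MADS-box factor that works with the myogenic factors, was at 75.2, 33.8, 60.8, 64.2 and 18.6 CPM in the progenitor cells of E15.5 control libraries 2 and 3, MOF cKO libraries 5 and 6 and the E17.5 control. In committed cells of the same libraries it was at 195, 251, 261, 206 and 65.5 CPM. Each library's committed cells were higher, by a log2 difference of 2.09 ± 0.15 (SE, n = 5 libraries, edgeR adjusted p = 1.2e-08). Its relative Mef2a (2.13) and Vgll2, a cofactor of TEAD factors (3.19), were higher too, as were Six4 (2.21) and Sox6 (1.65). Musculin (Msc), a repressor of myogenic factors, was lower in committed cells, at 4.37, 20.8, 31.7, 16.3 and 51.1 CPM against 140, 220, 200, 222 and 388 CPM, a log2 difference of -3.07 ± 0.17 (adjusted p = 3.38e-10). Eya1 (-1.39), Lbx1 (-0.87) and Prox1 (-0.78) were lower with it. In control libraries alone Eya1 (-1.15, edgeR adjusted p = 0.0784) and Lbx1 (-0.66, 0.106) did not pass.

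Of 15 tested genes that mark muscle progenitors, 14 were lower in committed cells and 1 higher, with a median log2 difference of -1.39. Notch3, a receptor that holds progenitors undifferentiated, was at 68.8, 35.0, 43.6, 69.2 and 123 CPM in progenitor cells and at 4.37, 4.79, 0.587, 2.72 and 6.39 CPM in committed cells. No value overlapped between the classes, and the log2 difference was -4.27 ± 0.27 (edgeR adjusted p = 1.95e-09). Its transcriptional targets Hes1 (-2.28), Heyl (-2.02) and Hey1 (-2.85) were lower with it. Fgfr4, a fibroblast growth factor receptor of the lineage (-1.01), and Spry1, a feedback inhibitor of that signal (-1.47), were lower as well. Megf10, an engulfment receptor known from satellite cells, was the exception at 1.14 higher. Calcr, a receptor of quiescent satellite cells, was too low for the test, with 22 UMIs in progenitor cells and 0 in committed cells, at least 7-fold lower against a floor of 3 UMIs over the class.

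Both proteins that drive myoblast fusion had RNA close to absent from progenitor cells, whereas adhesion genes of the list were present there. Mymx (myomixer), a short membrane protein that drives the fusion pore, was at 0, 0, 1.43, 0.63 and 1.16 CPM in progenitor cells and at 654, 535, 489, 456 and 235 CPM in committed cells. Mymk (myomaker), its partner at the cell surface, was at 0, 0, 3.58, 1.26 and 0 CPM and at 293, 222, 319, 319 and 254 CPM. The classes did not overlap for either gene, and the log2 differences were 9.09 ± 0.21 for Mymx and 7.73 ± 0.24 for Mymk (edgeR adjusted p = 3.53e-15 and 1.42e-13). The adhesion protein Jam3 (2.69), the caveolin Cav3 (2.94) and M-cadherin Cdh15 (0.65) were also higher, though Cdh15 did not pass after thinning (0.37, edgeR adjusted p = 0.0811) or with no block for the library (0.59, adjusted p = 0.133). N-cadherin Cdh2 was lower by a log2 difference of -2.36, while Jam2 and Myof did not pass the test (Myof passed without MOF cKO library 6, at 0.80 with an edgeR adjusted p of 0.0193). In all, 6 of 10 tested fusion genes were higher and 2 lower.

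Acetylcholine receptor and synapse genes were higher for 5 of 7 tested and lower for none. Chrng, the gamma subunit of the fetal receptor, was at 2.15, 0, 0.715, 1.26 and 3.49 CPM in progenitor cells and at 52.5, 28.7, 38.2, 33.3 and 36.7 CPM in committed cells, and Chrnd, the delta subunit, was at most 2.32 CPM against at least 19.7 CPM. The classes did not overlap for either subunit, with log2 differences of 4.72 ± 0.35 and 5.12 ± 0.50 (edgeR adjusted p = 1.47e-08 and 4.27e-07). Dok7, an adaptor of the synaptic kinase (4.34), and that kinase, Musk (1.83), were higher too, as was the beta subunit Chrnb1 (0.59), whose call was lost without either MOF cKO library (adjusted p = 0.0816 and 0.0591). The Chrnb1 call was also lost after thinning (0.92, edgeR adjusted p = 0.0554), with no block (0.55, adjusted p = 0.0551) and in control libraries alone (0.41, adjusted p = 0.289), where Musk did not pass either (1.74, adjusted p = 0.0531). Rapsn, which clusters the receptor, was at 48.5 to 55.9 CPM in progenitor cells and at 35.4 to 56.9 CPM in committed cells, and Agrn, the nerve's signal to it, at 6.45 to 16.3 and 6.38 to 9.59 CPM. Neither Rapsn nor Agrn passed the test. Chrne, the subunit that replaces Chrng in the adult, was at 0 in both classes.

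**Figure D4:**
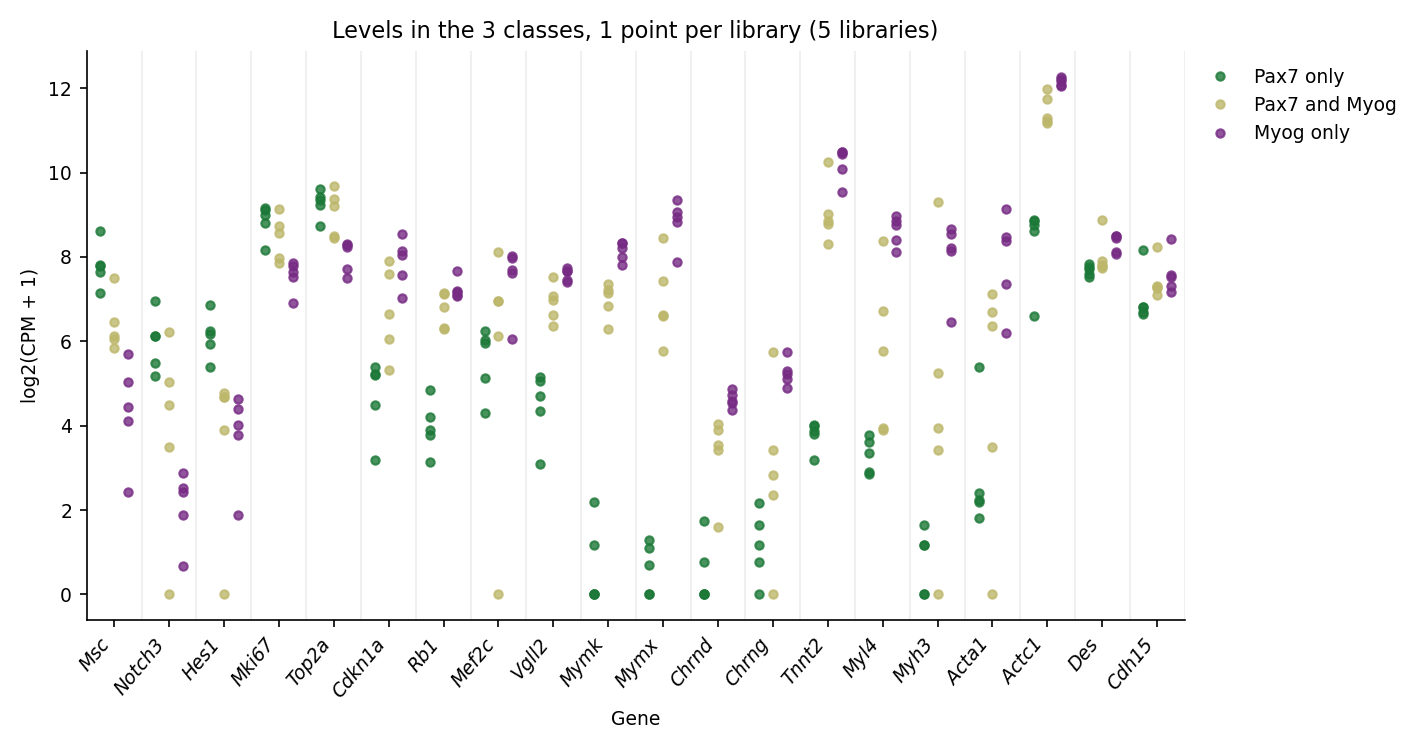
Levels of lineage genes on a log2(CPM + 1) scale (vertical axis) in progenitor, double-positive and committed cells, with 1 point for each of 5 libraries. Progenitor points of Mymx and Mymk lie at the low end of the axis, and double-positive points mostly lie between the other classes.

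Sarcomere genes were higher in committed cells almost without exception: 8 of 9 tested genes of the thick filament, 13 of 13 of the thin filament and 11 of 11 of the Z disc and its chaperones, with median log2 differences of 5.49, 4.50 and 4.93. Within the thick filament, Myh3, the embryonic myosin heavy chain, was at 0 to 2.15 CPM in progenitor cells and at 280, 295, 402, 371 and 86.3 CPM in committed cells (8.53 ± 0.24, edgeR adjusted p = 4.32e-14). Myh8, the perinatal chain, differed far less, at 8.14 to 46.3 CPM and 20.8 to 150 CPM (1.12 ± 0.37, adjusted p = 0.0251). Without the E17.5 control its log2 difference was 0.52 and did not pass (adjusted p = 0.0834), and the call was also lost without either MOF cKO library (adjusted p = 0.0546 and 0.0977). It was lost too after thinning (0.50, edgeR adjusted p = 0.408), with no block for the library (adjusted p = 0.0541), in control libraries alone (1.43, adjusted p = 0.155) and with DESeq2 (1.04, adjusted p = 0.301). Adult chains Myh1, Myh2, Myh4 and Myh7 were at most 2.5 CPM in either class. Mybpc1, slow myosin binding protein C, was the thick filament gene that did not pass (-0.45), except without E15.5 control library 2 (-0.56, edgeR adjusted p = 0.0296) or with library size alone (-0.56, adjusted p = 0.0297).

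Among thin filament genes, cardiac-type actin Actc1 was already present in progenitor cells, at 95.3 to 471 CPM, and reached 4216 to 4947 CPM in committed cells (3.81 ± 0.21, edgeR adjusted p = 2.32e-10). Skeletal actin Acta1 stayed at 2.52 to 40.7 CPM in progenitor cells and was at 162, 71.8, 353, 331 and 562 CPM in committed cells. Among the widest gaps were those of Tnnt2 (8.14 to 15.1 against 738 to 1444 CPM, log2 6.60), Tnni1 (8.43) and Tnnc1 (7.60). Tpm1, a tropomyosin also made outside muscle, differed by 0.81. Of the Z disc group, Ttn (titin) was at 75.6 to 373 CPM in progenitor cells and 757 to 2433 CPM in committed cells (2.98). Des (desmin), the intermediate filament of muscle, was at 182 to 226 and 269 to 359 CPM (0.77), so that it labelled both classes. Several genes had no UMI in progenitor cells: Mybph was at least 54.4-fold, Hrc at least 52-fold, the myosin chaperone Unc45b at least 47.5-fold, the calcium store protein Casq2 at least 45-fold and Ldb3 at least 24.8-fold higher in committed cells, against the floor of 3 UMIs over the class.

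Excitation-contraction genes were higher for 9 of 10 tested (median 4.54), among them the calcium pump Atp2a1 (6.47), Stac3, a partner of the calcium channel (4.47), and the release channel Ryr1 (1.39). The junction protein Jph1 did not pass. Metabolic genes of muscle were higher for 7 of 8. Ckm, muscle creatine kinase, was at 0 to 13.9 CPM in progenitor cells and 68.6 to 134 CPM in committed cells (4.92), whereas its brain-type relative Ckb was at 47.3 to 119 and 48.1 to 102 CPM and did not pass, except as lower after thinning (-0.78, edgeR adjusted p = 0.0198). Aldoa, a glycolytic enzyme of most cells, differed by 0.94.

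Growth signals were lower for 5 of 11 tested and higher for none. Igfbp5, a binding protein of insulin-like growth factors, was at 282 to 523 CPM in progenitor cells and 78.3 to 208 CPM in committed cells (-1.58 ± 0.13, edgeR adjusted p = 4.27e-08). Tgfb2, a growth factor, was lower by 2.02 on the log2 scale (-2.02), and the imprinted genes H19 (-0.37), Dlk1 (-0.56) and Igf2 (-0.22) by less. Igf2 no longer passed when E15.5 control library 3, either MOF cKO library or the E17.5 control was left out (adjusted p from 0.0511 to 0.185). With no block for the library Dlk1 (-0.48, edgeR adjusted p = 0.44) and Igf2 (-0.25, 0.314) did not pass. In control libraries alone H19 (-0.37, edgeR adjusted p = 0.0625) and Igf2 (-0.29, 0.1) did not pass.

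Cell cycle genes were lower in committed cells for 22 of 24, with a median log2 difference of -0.93 and none higher. Mki67, the marker of cycling cells, was at 550, 448, 511, 571 and 285 CPM in progenitor cells and at 199, 230, 220, 183 and 120 CPM in committed cells (-1.20 ± 0.09, edgeR adjusted p = 2.3e-08). The committed cells thus kept a level of more than 100 CPM in every library. Of the group, Mcm2 (0.20) did not pass, nor did Ccnd1, which encodes cyclin D1 (0.08), although Ccnd1 was lower at -1.38 (adjusted p = 0.00139) once cells with markers of other classes were left out. Among genes of cell cycle exit, 3 of 7 were higher and 3 lower. Cdkn1a, the cyclin-dependent kinase inhibitor p21, was at 21.5, 36.3, 35.8, 8.18 and 40.7 CPM in progenitor cells and at 372, 262, 281, 188 and 129 CPM in committed cells (3.21 ± 0.23, adjusted p = 1.03e-08). Rb1, the retinoblastoma protein, was higher too (3.47), and Cdkn1c, which encodes p57, was abundant in both classes at 6723 to 7812 and 10326 to 11846 CPM (0.71). Cdkn1b, which encodes p27, was lower (-0.98), as were Btg2 (-0.31) and Ccnd3 (-0.23), of which both lost their call when single libraries were left out (adjusted p of Btg2 up to 0.179, and of Ccnd3 up to 0.0625).

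By the size of the difference alone, the 10 largest rises among genes of at least 50 CPM were Mymx, Myh3, Tnni1, Mymk, Klhl41, Tnnc1, Frmd4b, Tnnt2, Prune2 and Mylpf. Klhl41, a sarcomere chaperone adaptor, was at most 2.15 CPM in progenitor cells and 79.9 to 257 CPM in committed cells (7.73). Frmd4b and Prune2, neither in any of the muscle lists, went from at most 2.15 and 3.49 CPM to 85.0 to 118 and 55.9 to 105 CPM (7.29 and 5.68). The 10 largest falls were Tagln, Notch3, Mgp, Chodl, Msc, Col18a1, Ltbp1, Gm266, Mdfic and Tnc. Tagln, an actin-binding protein best known from smooth muscle, was at 206 to 330 CPM in progenitor cells and 7.98 to 17.6 CPM in committed cells (-4.33). Chodl, a membrane lectin, was at 175 to 414 and 6.38 to 38.3 CPM (-3.68), and the matrix genes Col18a1 (-2.91), Ltbp1 (-2.88) and Tnc (-2.61) fell alongside Mdfic, an inhibitor of MyoD family factors (-2.65).

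Markers of other cells moved with the cut as well. All 6 fibroblast markers were higher in committed cells (median 1.14), and their sum was 2595 to 9595 CPM there except in MOF cKO library 5 (2546 CPM, against 2548 CPM in its progenitor cells). When members with at least 2 markers of fibroblasts or of 5 further classes were left out, 3 of the 6 could be tested, and 2 were lower and none higher (median -1.34). The screen removes cells by fibroblast markers, so this change was in part fixed by it. Under that screen 1652 genes were higher and 1759 lower of 7679. Erythroid genes were higher for 3 of 4. Of 17 genes that respond to tissue dissociation, 9 were lower in committed cells and none higher (median -0.51), with Fos at 1598 to 5186 CPM in progenitor cells and 377 to 2599 CPM in committed cells (-1.09). That count was 13 both with library size alone and with the screen. With no block for the library Fos lost its call (-0.99, edgeR adjusted p = 0.0799). So did Atf3 (adjusted p = 0.0709), Fosb (0.0606) and Egr1 (0.285). The part of all these markers and response genes in the differences was not tested beyond this.

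Cells with both Pax7 and Myog held intermediate levels for most genes that separate the classes. These genes were chosen by that difference in these same data, and no expected share was worked out. Of 969 genes higher in committed cells at 50 CPM or more, their pooled level lay between the classes for 687 (70.9%), and of 750 lower genes for 606 (80.8%). For example, Mymx stood at 0.782, 151 and 468 CPM in progenitor, double-positive and committed cells, and Tnnt2 at 13.3, 504 and 1233 CPM. Msc was at 236, 89.2 and 25.6 CPM in the same order. Of the 22 cell cycle genes lower in committed cells, 12 lay between the classes (54.5%), and 10 were at or above the progenitor level in double-positive cells. Mki67 was at 485, 434 and 195 CPM and Top2a, a topoisomerase of dividing cells, at 656, 667 and 281 CPM. A doublet of a progenitor and a committed cell would also carry both genes. Median UMIs of the double-positive cells were 14710 to 17776 in the 5 libraries, against 11773 to 17559 in progenitor and 14252 to 21291 in committed cells, and the part of doublets was not tested further.

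Promoters are shown for genes whose levels separate the classes, with letters that the factors of the lineage are known to bind. Myogenic factors bind E boxes, of which the symmetric form CAGCTG, the same on both strands, and the form CAGGTG were searched on both strands. TATTTAT, letters found within many sites of MEF2 factors, was searched as well. Sequences are from RefSeq, build GRCm38.p6, the 250 bases before the annotated start, 5′ to 3′ on the strand of the gene, with matches in capitals. Myog (chr1:134289754-134290003, plus strand) held the MEF2 letters, their first base at -61 from the start. Chrna1 (chr2:73580339-73580588, minus strand) held the symmetric E box at -92 and -44 and the other at -73, and Chrng (chr1:87205561-87205810, plus strand) the symmetric one at -155 and -132. Acta1 (chr8:123894776-123895025, minus strand) held it at -221, and Tnnt2 (chr1:135836084-135836333, plus strand) at -223 and -157, with the other form at -94 on the opposite strand. Pax7 (chr4:139832969-139833218, minus strand), whose RNA defines the other class, held none of these letters in this window.
Myog: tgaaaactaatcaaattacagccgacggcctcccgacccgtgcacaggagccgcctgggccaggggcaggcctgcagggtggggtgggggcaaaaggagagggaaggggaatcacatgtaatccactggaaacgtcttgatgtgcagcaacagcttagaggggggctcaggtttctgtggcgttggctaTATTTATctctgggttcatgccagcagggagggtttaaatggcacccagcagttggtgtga
Chrna1: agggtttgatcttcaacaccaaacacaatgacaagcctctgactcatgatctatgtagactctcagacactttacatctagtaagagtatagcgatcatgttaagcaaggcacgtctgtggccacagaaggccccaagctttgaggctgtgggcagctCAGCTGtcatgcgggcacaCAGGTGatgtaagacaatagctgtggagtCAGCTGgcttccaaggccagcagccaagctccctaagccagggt
Chrng: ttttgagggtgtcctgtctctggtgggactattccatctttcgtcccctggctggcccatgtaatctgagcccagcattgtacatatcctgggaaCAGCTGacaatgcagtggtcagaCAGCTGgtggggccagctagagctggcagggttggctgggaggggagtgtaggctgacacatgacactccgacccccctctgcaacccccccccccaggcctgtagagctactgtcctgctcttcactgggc
Acta1: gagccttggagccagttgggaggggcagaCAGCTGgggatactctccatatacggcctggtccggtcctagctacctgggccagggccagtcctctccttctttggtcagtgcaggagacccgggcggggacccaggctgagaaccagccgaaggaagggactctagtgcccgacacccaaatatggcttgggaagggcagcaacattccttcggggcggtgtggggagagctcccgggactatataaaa
Tnnt2: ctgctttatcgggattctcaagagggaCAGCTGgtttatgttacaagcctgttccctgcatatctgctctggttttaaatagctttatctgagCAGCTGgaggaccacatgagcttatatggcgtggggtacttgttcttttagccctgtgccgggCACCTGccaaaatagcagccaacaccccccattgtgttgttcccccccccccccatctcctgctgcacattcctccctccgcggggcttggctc
Pax7: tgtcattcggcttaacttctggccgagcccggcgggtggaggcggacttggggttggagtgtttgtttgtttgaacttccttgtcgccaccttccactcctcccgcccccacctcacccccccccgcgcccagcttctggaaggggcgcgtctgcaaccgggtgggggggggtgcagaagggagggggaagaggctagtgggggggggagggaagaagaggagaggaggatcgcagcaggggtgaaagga

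The promoter table held 48 genes of the 3 sarcomere lists and the excitation-contraction list, and CAGCTG was present in 18 of them (37.5%), CAGGTG in 12 (25%) and TATTTAT in 5 (10.4%). Of the acetylcholine receptor and synapse genes 3 of 7 held CAGCTG (42.9%), and of 9 matched progenitor genes and 9 matched regulators none did. The fusion genes had 1 of 5 (20%), the cell cycle genes 1 of 19 (5.26%) and the dissociation response genes, of which 9 were lower in committed cells, 4 of 14 (28.6%). The promoters of Actc1, Tnnc1 and Myl4, all higher in committed cells, held none of the 3 motifs. Across all 27025 promoters of the table the shares were 12.8% for CAGCTG, 17.1% for CAGGTG and 5.33% for TATTTAT. A match describes letters and is not a measured binding site.

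MOF cKO was compared with control in UMI sums over all myogenic cells of a library. At E15.5 the sarcomere genes Acta1 and Tnnc1 were higher in MOF cKO and 5 of 17 dissociation response genes lower, while most of the muscle program passed no test. Of 10046 genes 17 were called (0.169%), 4 higher (0.0398%) and 13 lower (0.129%; edgeR, adjusted p under 0.05). Acta1 was at 75.5 and 45.0 CPM in control and at 168 and 143 CPM in MOF cKO, a log2 difference of 1.44 ± 0.20 (n = 2 libraries each, edgeR adjusted p = 0.00626). Tnnc1, the troponin C of slow and embryonic muscle, was at 28.8 and 23.1 against 58.1 and 54.4 CPM (1.17 ± 0.19, adjusted p = 0.0202). Ckb was at 45.7 and 57.1 against 86.0 and 108 CPM (0.91 ± 0.17, adjusted p = 0.0446). MOF cKO libraries were higher for all 3 genes without overlap, and the Ckb call was lost with library size alone (adjusted p = 0.0561).

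Acta1 RNA in the other cells with few keratin UMIs moved the same way at a far lower level, at 2.14 and 0.761 CPM in control and 4.97 and 4.67 CPM in MOF cKO, beside the larger share of myogenic cells in those libraries. With DESeq2 the Acta1 call was lost (log2 1.40, adjusted p = 0.175), and Tnnc1 was not called without control library 3 (0.97, adjusted p = 0.117). Within committed cells alone both genes passed again: Acta1 was at 162 and 71.8 against 353 and 331 CPM (1.64 ± 0.23, edgeR adjusted p = 0.00786) and Tnnc1 at 59.1 and 30.3 against 123 and 141 CPM (1.66 ± 0.25, adjusted p = 0.0114). DESeq2 did not call Acta1 in committed cells either (1.58, adjusted p = 1). In progenitor cells Acta1 was at 4.3 and 3.75 against 3.58 and 2.52 CPM. Committed cells, the source of most Acta1 UMIs, had a higher Acta1 level in both MOF cKO libraries than in both controls. The share of Myog-positive cells was also higher in MOF cKO, with overlapping Wilson intervals. How much either added to the Acta1 difference was not tested.

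**Figure D5:**
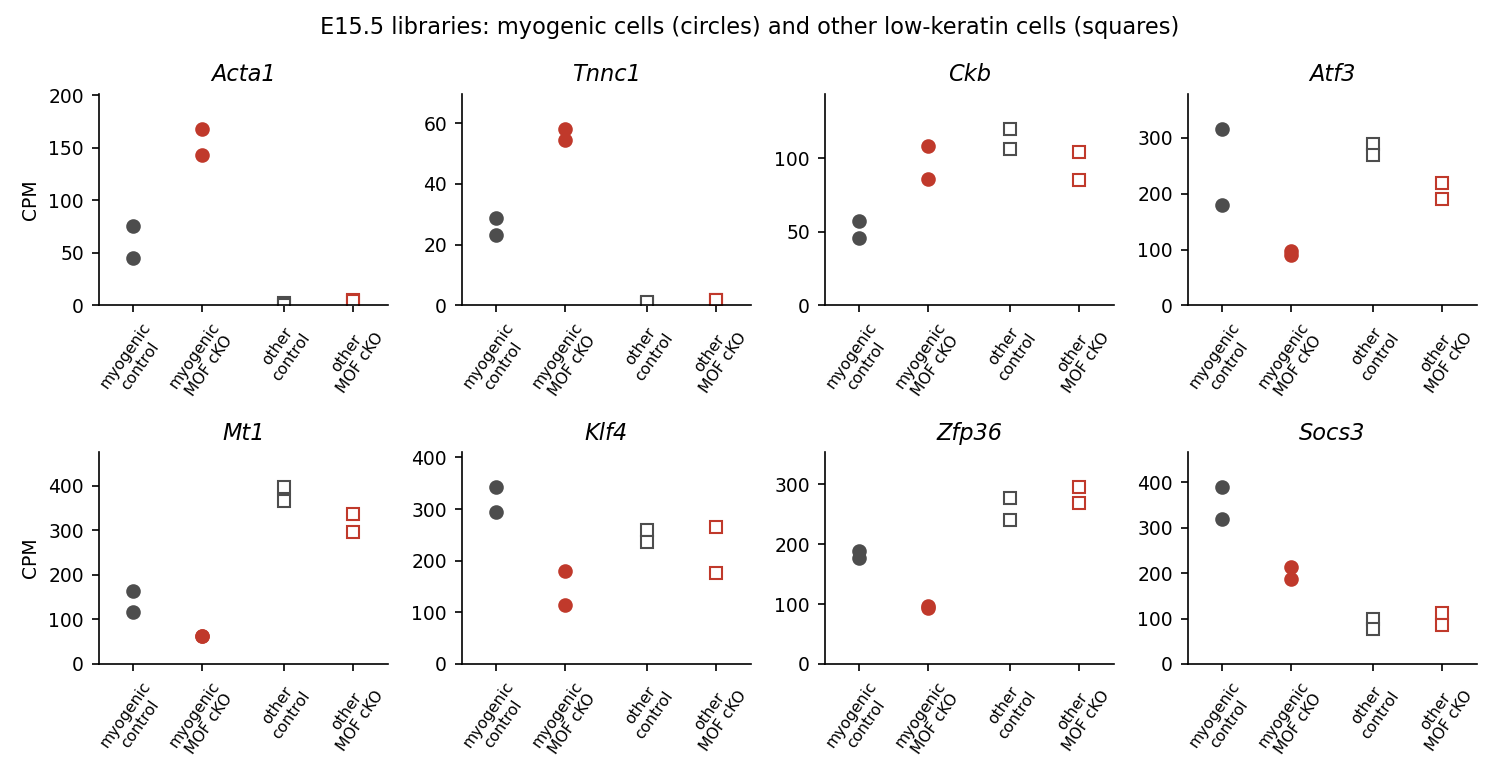
Level in CPM (vertical axis, starting at 0) of named genes in the E15.5 control and MOF cKO libraries, with circles for myogenic cells and squares for other low-keratin cells, 1 point a library. For Acta1 and Tnnc1 both MOF cKO circles lie above both control circles, and for Atf3 and Mt1 below.

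Atf3, a stress-induced transcription factor, was lower in MOF cKO at 97.8 and 91.0 CPM against 179 and 316 CPM in control (-1.39 ± 0.19, edgeR adjusted p = 0.00581). The metallothionein Mt1 was at 63.7 and 62.3 against 165 and 117 CPM (-1.12 ± 0.17, adjusted p = 0.0099), and the heat shock gene Hspa1a at 6.34 and 6.67 against 27.8 and 31.0 CPM (-2.16). In other low-keratin cells Atf3 was at 219 and 191 against 288 and 270 CPM, and Mt1 at 337 and 297 against 397 and 366 CPM. Klf4 (-1.10), Cxcl1 (-1.30), Cebpd (-1.16), Zfp36 (-0.91), Klf2 (-0.86), Socs3 (-0.80) and Fosb (-0.69) fell too. DESeq2 did not call Atf3 (adjusted p = 0.163), Klf4 (0.0824) or Cxcl1 (0.985), and with the screen for other classes' markers Klf4 (-1.08, edgeR adjusted p = 0.177), Cebpd (-1.26, 0.201) and Socs3 (-0.64, 0.0856) did not pass. Cxcl1 was also lost without control library 3 (-0.66, edgeR adjusted p = 0.278). Fosb was lost without control library 2 (-0.60, adjusted p = 0.0679) and Mt1 without the keratin limit (adjusted p = 0.0571). The other 3 falls were Lgals7, Stfa3 and Cstdc5, genes of the epidermis, named after their values were seen, and the summed keratinocyte markers in members were 98.4 and 123 CPM in control against 14.6 and 50.8 CPM in MOF cKO. How much of these falls came with RNA of other cells was not tested.

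Counted by list, 5 of 17 dissociation response genes fell at E15.5 and none rose (median -0.41, against 0.00 over all genes). The thin filament list had 2 of 13 higher (median 0.01) and muscle metabolism 1 of 7 (median 0.41). Regulators, progenitor genes, fusion genes, receptor and synapse genes, thick filament, Z disc, excitation-contraction, growth signals, cell cycle and cell cycle exit had no call in either direction, with medians from -0.26 to 0.16. Fusion genes, for instance, stood at a median of 0.15 with 0 of 10 called, and the 24 cell cycle genes at 0.16.

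Within progenitor cells of E15.5, 13 of 8012 genes were called (0.162%), all lower in MOF cKO, and 6 of them were dissociation response genes. With library size alone Zfp36 (-1.05, edgeR adjusted p = 0.0595) and Socs3 (-0.87, 0.0666) lost their calls. Both were lost too without MOF cKO library 5 (-1.07 and -0.85). Socs3 was also lost without control library 2 (-0.62), and Klf2 without MOF cKO library 6 (-0.93). The marker screen lost Socs3 (-0.70, edgeR adjusted p = 0.0896) and Klf4 (-0.94, 0.0924). Atf3 was at 271 and 424 CPM in control and 142 and 145 CPM in MOF cKO (-1.29 ± 0.19, edgeR adjusted p = 0.00954). Sox9, a factor of several stem cell types, was at 127 and 146 against 57.9 and 62.3 CPM (-1.20 ± 0.18, adjusted p = 0.00954), and the neurotrophin Bdnf at 81.7 and 114 against 44.3 and 44.7 CPM (-1.17 ± 0.21, adjusted p = 0.0261). Both had lower values in committed cells of the same libraries, at 21.9 to 40.8 CPM for Sox9 and 9.52 to 22.9 CPM for Bdnf. Sox9 was not called without MOF cKO library 5 (adjusted p = 0.0723). Bdnf was not called with DESeq2, library size alone, the marker screen, or without control library 3 or MOF cKO library 5 (adjusted p from 0.0538 to 0.204). In committed cells, 4 of 7635 genes were called (0.0524%): Acta1 and Tnnc1 higher (0.0262%), and Atf3 (-1.65) and Mt1 (-1.09) lower (0.0262%). The Mt1 call there was lost with the marker screen (-1.28, adjusted p = 0.201) and without the keratin limit (-0.73, adjusted p = 0.339).

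The deleted gene was low in members of either genotype. Kat8 was at 9.94 and 12.2 CPM in E15.5 control and at 6.61 and 4.87 CPM in MOF cKO (-0.95 ± 0.38, edgeR adjusted p = 0.631). In other low-keratin cells it was at 9.81 and 10.1 against 6.62 and 6.11 CPM, and in cells with at least 10 keratin UMIs, the compartment in which the Cre is active, at 13.0 and 14.0 against 13.0 and 10.0 CPM. Reads at the end of the transcript need not cover the deleted part, so that these levels do not check the deletion.

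At E16.5 the test rested on 2 control libraries of 17 and 12 members and 1 MOF cKO library of 30, since MOF cKO library 1 had 9 members and fell under the minimum of 10. The lone MOF cKO library is assumed to vary like the controls, whose spread alone gives the p-values. Of 3594 genes 15 were called (0.417%), 5 higher (0.139%) and 10 lower (0.278%; edgeR). Mylpf, the fast regulatory light chain, was at 163 and 356 CPM in control and 1038 CPM in MOF cKO library 2, and Myl4, the embryonic essential light chain, at 172 and 146 against 509 CPM (2.11 ± 0.48 and 1.84 ± 0.47, n = 2 and 1, edgeR adjusted p = 0.00438 and 0.0183). The left-out MOF cKO library stood at 85.6 CPM for Mylpf and 50.3 CPM for Myl4, below both controls. With it kept, none of 2667 genes was called (edgeR, adjusted p = 0.999 for Mylpf and for Myl4), so that the calls rest on library 2. DESeq2 called neither (adjusted p = 0.842 and 1), and library size alone lost Myl4 (adjusted p = 0.378). Without the keratin limit Myl4 was at -0.20 and Mylpf at 0.07, with no call.

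Among the remaining E16.5 calls Cxcl5 (8.81), Mt2 (2.46) and Ifitm3 (1.75), of inflammation, metal binding and the interferon response, were higher. Mt2 was at 70.5 and 5.83 CPM in control and 198 CPM in MOF cKO library 2, and at 287 CPM in the left-out library. Lor, which encodes loricrin of the cornified epidermis, was lower (-6.09), at 291 and 105 against 2.15 CPM, and in other low-keratin cells at 2077 and 1229 against 9.5 CPM. Hist1h2ak (-4.77), Gm10709 (-3.97) and Ccnb1 (-2.85) were lower too, of which Gm10709 was at 1419 CPM in the left-out library, above both controls (551 and 980 CPM). DESeq2 did not call Mt2, Ifitm3, Hist1h2ak, Ccnb1 or Lor (adjusted p of 0.133 for Lor and 1 for the others), and with the left-out library kept none of these genes passed.

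Over both stages, with stage as a term, 2 of 8334 genes were called (0.024%): Acta1 higher (1.46 ± 0.19, edgeR adjusted p = 0.0151) and Hspa1a lower (-2.20 ± 0.32, adjusted p = 0.0263), each being 0.012% of the genes. Acta1 at E16.5 was at 92.6 and 128 CPM in control and 277 CPM in MOF cKO library 2, while the left-out library had 50.3 CPM. The Acta1 call was lost with that library kept (1.27, adjusted p = 0.499), without the keratin limit (0.67, adjusted p = 1), and without E15.5 control library 3 (1.24, adjusted p = 0.426), E15.5 MOF cKO library 5 (1.37, adjusted p = 0.0806) or E16.5 MOF cKO library 2 (1.43, adjusted p = 0.0527). The Hspa1a call was lost without the keratin limit (-1.98, adjusted p = 0.0956) and without E15.5 MOF cKO library 5 (-2.21, adjusted p = 0.208), MOF cKO library 6 (-2.23, adjusted p = 0.173) or control library 2 (-2.26, adjusted p = 0.0741), and with the replicate block and the library of 9 cells kept (-2.19, adjusted p = 0.0734). Low counts kept Hspa1a out of the fit with that library and no block and of the fit without E15.5 control library 3. No gene passed the test of a difference between the stages (0 of 9171 by edgeR, where 588 had an unadjusted p under 0.05, while DESeq2 called 8). Without E16.5 control library 2 that count was 78, and without control library 1 it was 9.

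At E17.5 the QPC cKO library was set beside its control without a test, and a gene was called where the CPM ratio was at least 2 in either direction, the exact Poisson intervals were apart and 1 of the libraries had at least 20 UMIs. By this rule 248 of 7804 genes were called (3.18%), 105 higher in QPC cKO (1.35%) and 143 lower (1.83%). The intervals cover counting error only and treat UMIs as independent, although many UMIs of a gene can come from 1 cell, so these calls set 2 libraries side by side and not the genotypes. Uqcrq itself was at 171 CPM in the control members and 214 CPM in QPC cKO members, and in cells with at least 10 keratin UMIs at 106 and 43.9 CPM. Those sets of cells were not alike: the median was 35 keratin UMIs over 3069 control cells and 277 over 1162 QPC cKO cells.

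The largest rises were Hspa1b (5.72 against 174 CPM, ratio 26.0 with a pseudocount of 1 CPM), Hspa1a (9.16 against 175 CPM, 17.4), Csrp3, Hist2h2ac and Myl9. Csrp3 had 5 against 30 UMIs, and its ratio of 7.01 was 2.84 without the keratin limit. The inducible heat shock genes led a wider group: 7 of 17 dissociation response genes were higher and none lower, such as Fos at 1014 against 3435 CPM and Jun at 378 against 1767 CPM. The largest falls were Aspn, Egfl6, Ccl2, Serpinf1 and Wif1, genes of connective tissue and, for Ccl2, of inflammation. Fibroblast markers fell with them: Col1a1 was at 1599 against 141 CPM and Dcn at 289 against 18.2 CPM, and 5 of 5 counted markers were lower. At least 2 fibroblast markers were found in 28 of 90 control members and 6 of 55 QPC cKO members. Without members holding at least 2 markers of any of 6 other classes, fibroblasts included, 61 control and 46 QPC cKO members remained. None of the 3 fibroblast markers that could still be counted was called, and 177 genes were, 111 higher and 66 lower, with Hspa1a, Hspa1b and Fos among the higher. That screen removes cells by fibroblast markers, so the lost calls on such markers were in part fixed by it.

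Of 9 counted fusion genes 3 were lower in QPC cKO members and none higher, beside the smaller share of Myog-positive cells there. Mymk was at 108 CPM (189 UMIs) in control and 26.9 CPM (31 UMIs) in QPC cKO, Mymx at 91.0 and 35.6 CPM, and Jam3 at 207 and 95.5 CPM, of which Jam3 was not called without the keratin limit. Sarcomere genes went in both directions, with Tnnt2 at 320 against 79.9 CPM and Actc1 at 1877 against 905 CPM, but Acta1 at 233 against 692 CPM, Tnni2 at 93.8 against 264 CPM and Ckm at 58.9 against 175 CPM. The calls on Mymk, Mymx, Tnnt2 and Actc1 stayed without the keratin limit, and those on Acta1 (ratio 1.6), Tnni2 (1.76) and Ckm (1.49) did not. Of the 797 Acta1 UMIs in QPC cKO members, 761 came from its 7 committed cells, where Acta1 was at 5896 CPM, against 562 CPM in the 30 committed cells of the control. Of 15 counted progenitor genes none was called (median log2 ratio 0.24, against -0.01 over all genes).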

How the data were processed

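Single-cell libraries of whole embryonic back skin were used. The authors deposited, for each library, a matrix of UMI counts per gene and cell, made with Cell Ranger against mm10. Version 6.1.2 is named in the study's methods and in the submitters' notes, which name 1.3.1 beside it for the E16.5 and E17.5 samples. Doublet removal was not stated and none was made. Kit versions differed between stages, and the gene list of E16.5 from that of the other stages. Libraries were the replicates, grouped by the labels. Counts were summed per library and class of cells, classes under 10 cells were left out, the 7 genes of the rule were removed, and edgeR 4.0.16 (filterByExpr, TMM, quasi-likelihood test, R 4.3.3) gave Benjamini-Hochberg adjusted p-values over all genes tested. DESeq2 1.42.0, library size alone, no filter, left-out libraries, a screen of cells with at least 2 markers of 6 other classes, thinning to 4000 UMIs and other rules for members were alternatives. Shares were compared by exact permutation of genotype within stage. At E17.5, with 1 library a group, exact Poisson intervals were set side by side. Scripts were tested on simulated data. Members and gene lists were chosen with earlier results of these data known. Besides members of the lists, genes named by size were the 10 with the largest change in each direction among called genes with a mean of at least 50 CPM in either group and the same direction in every library. At E17.5 they were the 5 with the largest ratio in each direction among those called, with no minimum CPM. A few genes are not reported here.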

Additional observations from a re-analysis of the deposited data

Results flagged for a closer look

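Cells with at least 2 myogenic markers but at least 10 keratin UMIs were outside the rule. They were 4 of the 2635 cells with that many keratin UMIs (0.152%) in E15.5 control library 2, 13 of 1061 (1.23%) in E15.5 MOF cKO library 5, 77 of 3069 (2.51%) in the E17.5 control and 5 of 1162 (0.43%) in the E17.5 QPC cKO library, each above the limit that a count of 0 allows. Of the 77 cells in the E17.5 control, 49 had 10 to 12 keratin UMIs and the median was 12, while other low-keratin cells of that library, with fewer than 2 markers, had a median of 7.

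For 6 genes every MOF cKO library moved against its controls in 1 direction at E15.5 and in the other at E16.5, where 1 MOF cKO library entered the fit. The difference between the stages was 1.72 on the log2 scale for Cxcl1 (edgeR adjusted p = 0.718), 2.50 for Klf4 (adjusted p = 0.718), 1.75 for Zfp36 (adjusted p = 0.0865), 2.26 for Klf2 (adjusted p = 0.626), 3.09 for Mt2 (adjusted p = 0.0865) and -5.54 for Hist1h2ak (adjusted p = 0.754). None passed the test.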

How the results depend on the processing

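The planned screen for markers of all other classes left too few members, so a screen for 6 classes was chosen after seeing the data. Groups of 2 libraries, 9 to 30 members a library at E16.5 and lone libraries at E17.5 limit every genotype comparison. Of the values of single genes, 1640 kept direction and side of the threshold under the alternatives, 118 lost the threshold, 13 gained it and 13 reversed. The causes below were not tested.

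Committed against progenitor cells gave 1949 calls with no block for the library, 1416 with control libraries alone and 1266 after thinning (2329 to 3214 with single libraries left out). MOF cKO at E15.5 gave 102 with no filter and 35 to 95 with single libraries left out. Progenitor cells at E15.5 gave 7 with library size alone, 62 with no filter, 24 without the keratin limit and 17 to 90 with single libraries left out; committed cells gave 76 and 42 to 62. At E16.5 DESeq2 gave 2, and keeping the library of 9 cells 0. Both stages together gave 8 with DESeq2, 65 with no filter, 0 without the keratin limit, 0 with the library of 9 cells and 1 to 7 with single libraries left out; the screen left 5 libraries, with no E16.5 control, so that its 17 calls compare E15.5 alone. The difference between stages gave 8 with DESeq2, 29 with no filter and 0 to 78 with single libraries left out. QPC cKO gave 126 with a pseudocount of 10 CPM and 57 with at least 100 UMIs.

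Share differences with single libraries left out were 1.01 to 1.29 points at E15.5, 0.238 to 1.24 at E16.5 and 0.694 to 1.19 over both, with -5.88 to -1.92 for Pax7 and 1.94 to 4.76 for Myog. Replicate numbers were shared between genotypes only at E16.5, and although the study had littermate controls, no label says that these numbers pair embryos. With the replicate block the count over both stages was 7, and 0 with the library of 9 cells kept, as at E16.5. A block at E16.5 without that library, and leaving out a library there, leave no residual degrees of freedom and were not run. The block gave the E16.5 share an exact permutation p of 1 and that of both stages 0.167.

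Between committed and progenitor cells, Ccnd1 turned to -0.15 with DESeq2, -0.03 with library size alone, -0.18 and -0.08 without E15.5 control library 3 or MOF cKO library 6, -1.38 with the screen, -0.09 without the keratin limit, -0.05 in controls alone and -0.21 after thinning (-0.18 to 0.30 with single libraries left out). Ckb turned to 0.05 in controls alone, and Jph1 (-0.37 to 0.17 with single libraries left out) to 0.17 without the E17.5 control, 0.08 with the screen and 0.17 in E15.5 libraries alone. Myl4 at E16.5 turned to -0.20 without the keratin limit.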
